A study of Mus musculus with 6 samples.

Results

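The constitutive proteasome genes were examined in neutrophils sorted from peripheral blood (PB) of mice with ligation-induced periodontitis (LIP) and of unligated control mice (Ctrl). Members were the protein-coding genes whose symbol starts with *Psma*, *Psmb*, *Psmc*, *Psmd*, *Psme*, *Psmf* or *Psmg* followed by a number. The 3 catalytic subunits of the immunoproteasome, *Psmb8*, *Psmb9* and *Psmb10*, were set apart as a comparison. This name rule used no measured value and gave 47 of 29097 genes in the table. Of these, 44 reached a mean of 1 FPKM (fragments counted relative to gene length and depth) over the libraries and were tested.

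All mice were male C57BL/6 wild-type animals of 8 weeks with no engineered allele. LIP mice carried silk ligatures around the molars for 14 d, and Ctrl mice stayed unligated for the same time. Cells were sorted as CD45+CD11b+Ly6G+ and sequenced in bulk with Smart-seq2, a full-length cDNA method without molecular identifiers. Each group held 3 libraries and each library was a pool of 5 mice, so differences between single animals were not measured.

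Total counts per library lay between 52186555 and 57262379. Markers of several cell types differed between the groups. All 20 mature neutrophil markers rose in LIP, and their summed level went from between 14500 and 17800 FPKM in Ctrl to between 61900 and 68400 in LIP. All 10 B cell markers fell, from a sum between 1740 and 1980 to between 276 and 322, as did all 10 T cell markers (170 to 200 against 33.0 to 47.7) and all 7 erythroid markers tested (159000 to 169000 against 21600 to 22800). All 8 platelet markers rose (710 to 968 against 1940 to 2230), and 7 of 8 monocyte markers rose (842 to 895 against 2550 to 2640). Most of the monocyte sum was *Cd14*, with 778 to 872 FPKM in Ctrl and 2050 to 2076 in LIP before division by the TMM factor. No marker in the lists was at 0 in all libraries, and these sums are FPKM divided by the TMM factor of each library. Most cell types express the proteasome, and in bulk libraries fewer cells of a type and less RNA per cell cannot be told apart. The part of these other cells in the proteasome values was not tested.

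The proteasome is the main protease for proteins marked with ubiquitin. Its 20S core is a barrel of alpha rings, which gate the entrance, and beta rings, of which *Psmb5*, *Psmb6* and *Psmb7* carry the active sites. The 19S regulatory particle caps the barrel, and its base of ATPases unfolds the substrate while its lid removes ubiquitin. Dedicated chaperones assemble both particles, and the activators encoded by the *Psme* genes and the inhibitor encoded by *Psmf1* bind the ends of the core. Inflammatory signals such as interferon can replace the constitutive active-site subunits with those of the immunoproteasome, which favor the production of peptides for antigen presentation. Neutrophils are short-lived cells that make much of their protein store before they leave the bone marrow.

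Transcripts of the tested members were on balance lower in the LIP libraries. In edgeR's quasi-likelihood test, 17 of 44 members (38.6%) had a lower value in LIP at an adjusted p under 0.05 and 0 had a higher one. Over all 10440 genes tested, 27.2% passed as lower, 26.5% as higher and 53.6% in either direction. At an unadjusted p under 0.05, 20 members were lower and 0 higher, and the share over all genes was not computed there. DESeq2 called 16 lower and 0 higher, where 27.0% and 28.6% of all genes were. On log2(FPKM + 1), which is scaled by depth without TMM factors, limma called 31 lower and 0 higher. In that fit 40.9% of all genes were lower and 1981 of the 10440 were higher. A negative log2 fold change was found for 37 members and a positive one for 7. The median log2 fold change was -0.35 over the members and -0.09 over all genes tested. For 22 members the 3 LIP libraries all lay below the 3 Ctrl libraries, which held for 33.1% of all genes. Only *Psmd10* had all LIP libraries above all Ctrl libraries, which held for 30.3% of all genes.

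The count of lower members depended on the libraries and on the scaling. Without Ctrl library 2 it was 11, where 22.8% of all genes were lower, with a median of -0.26. Leaving out each of the other libraries gave 13 to 16, where 21.6% to 26.5% of all genes were lower. Of the 17 members, 9 passed in all 6 of these fits, namely *Psmb6*, *Psmc4*, *Psmc5*, *Psmd3*, *Psmd7*, *Psmd14*, *Psme3*, *Psmf1* and *Psmg1*. *Psmd6* and *Psma2* passed in 0 of the 6. *Psma3* was lost without Ctrl library 2, LIP library 1 or LIP library 3 (highest edgeR adjusted p 0.113), and *Psmg3* without Ctrl library 1, Ctrl library 3 or LIP library 2 (0.0713). *Psma5* was lost without Ctrl library 2 or LIP library 1 (0.110), *Psmd1* without Ctrl library 3 or LIP library 3 (0.0812), and *Psmb1* and *Psmd9* without Ctrl library 2 (0.0699 and 0.0704). With plain library totals in place of TMM, 32 members were lower, where 40.0% of all genes were lower and 18.2% higher, and the medians were -0.67 for members and -0.42 for all genes. Scaling on the mature neutrophil genes made all 44 members lower, where 88.6% of all genes were lower and 0.613% higher, with medians of -2.16 and -1.91. Scaling moves members and all genes by nearly the same amount, so the gap between these medians, -0.25 with TMM, is fixed by construction. The gap was -0.06 with no filter on low values, where the medians were -0.31 for members and -0.25 for all 29097 genes. It was -0.17 with edgeR's own expression filter and -0.18 without Ctrl library 2. With a minimum of 5 FPKM, which kept 37 members, it was -0.46. The 7 members with a positive log2 fold change under TMM were all negative with library totals and on neutrophil genes.

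**Figure D1:**
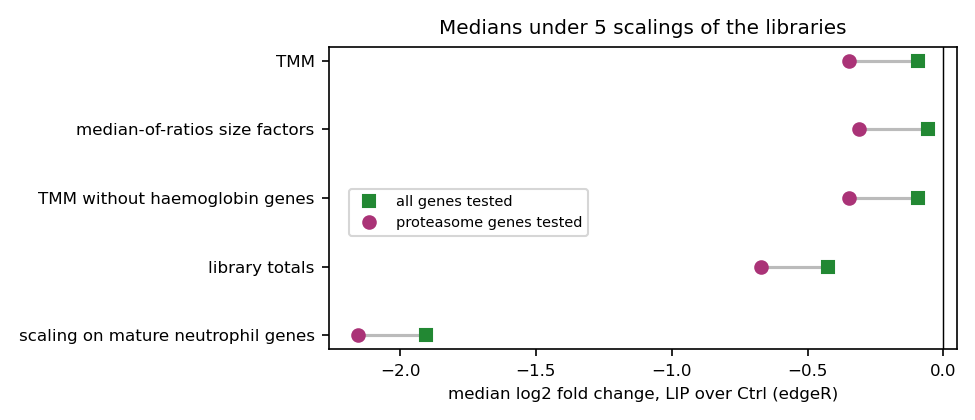
Median log2 fold change (LIP over Ctrl, x axis) of the 44 proteasome genes and of all genes tested under 5 ways of scaling the libraries. Scaling shifts both medians together, from -0.35 and -0.09 with TMM to -2.16 and -1.91 when mature neutrophil genes set the scale, so the distance between them is one observation and not 5.

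**Figure D2:**
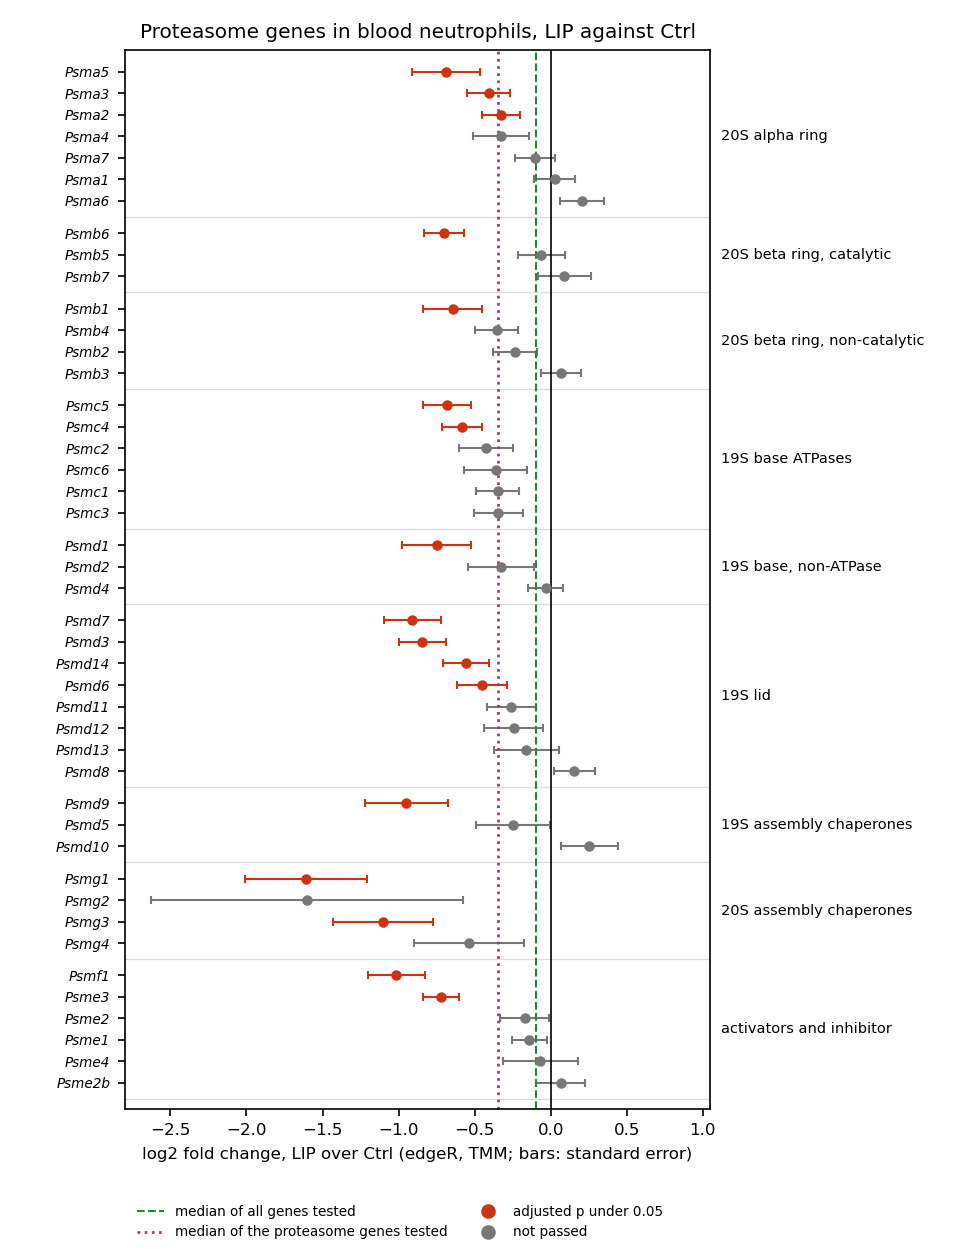
Log2 fold change (LIP over Ctrl, x axis) of each of the 44 tested proteasome genes, grouped by role, with standard errors as bars; red points passed an adjusted p of 0.05. All 17 red points lie left of 0, and the 20S assembly chaperone *Psmg1* lies farthest left at -1.61.

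Of the 3 catalytic subunits of the core that were tested, *Psmb6* fell, and *Psmb5* and *Psmb7* did not pass. *Psmb6*, the caspase-like active site, is encoded on chromosome 11 at 70525367-70527858 (GRCm38). Its level was 90.8, 96.4 and 78.0 CPM (counts normalized to library size with TMM factors) in the Ctrl libraries and 58.5, 50.7 and 54.1 CPM in the LIP libraries. The groups did not overlap, and the LIP mean was 61.6% of the Ctrl mean (log2 fold change -0.70, SE 0.13, edgeR adjusted p = 0.00126). *Psmb5*, the chymotrypsin-like site that proteasome inhibitor drugs target, had 40.1, 50.3 and 51.2 CPM in Ctrl and 40.7, 48.2 and 46.6 CPM in LIP. These ranges overlapped almost entirely, with a log2 fold change of -0.06 (SE 0.15, edgeR adjusted p = 0.750). *Psmb7*, the trypsin-like site, had 26.0, 23.0 and 26.0 CPM in Ctrl and 24.6, 27.8 and 27.3 CPM in LIP. It did not pass the test either (log2 fold change 0.09, SE 0.17, edgeR adjusted p = 0.689). *Psmb7* overlaps *Nek6* and *Gm13586* on the other strand. Whether the counting used strand is not given in the sources used here, so reads of such pairs cannot be told apart. *Psmb11*, the catalytic subunit of the thymus, had 8 reads in Ctrl library 3 and 0 in the other 5 libraries, where a count of 0 allows up to 3 reads, and was not tested.

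Promoter sequences of *Psmb5*, which did not pass, of *Psmb6*, which fell, and of *Psmb9*, the immunoproteasome partner of *Psmb6*, show how the start regions of these genes compare. Each window runs from 250 bases before to 50 bases after the RefSeq start (GRCm38.p6) and is written 5′ to 3′ on the strand of the gene. The windows are chr14:54617946-54618245 (minus strand), chr11:70525107-70525406 (plus strand) and chr17:34187281-34187580 (minus strand). Capitals mark the core of an antioxidant response element, the site type bound by NRF1 and NRF2, in *Psmb5* and *Psmb6*, and a CCAAT box in *Psmb9*.
Psmb5: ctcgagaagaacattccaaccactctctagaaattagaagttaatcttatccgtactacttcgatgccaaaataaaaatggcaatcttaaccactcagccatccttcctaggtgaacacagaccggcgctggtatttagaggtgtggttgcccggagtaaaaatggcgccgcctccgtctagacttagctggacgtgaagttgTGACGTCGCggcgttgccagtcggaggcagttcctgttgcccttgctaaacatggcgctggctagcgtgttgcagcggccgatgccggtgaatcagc
Psmb6: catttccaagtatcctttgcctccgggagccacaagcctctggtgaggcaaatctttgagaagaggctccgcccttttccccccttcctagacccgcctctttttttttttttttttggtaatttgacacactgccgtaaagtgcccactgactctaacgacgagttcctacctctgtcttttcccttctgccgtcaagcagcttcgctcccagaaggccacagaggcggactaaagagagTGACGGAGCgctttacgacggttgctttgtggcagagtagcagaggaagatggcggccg
Psmb9: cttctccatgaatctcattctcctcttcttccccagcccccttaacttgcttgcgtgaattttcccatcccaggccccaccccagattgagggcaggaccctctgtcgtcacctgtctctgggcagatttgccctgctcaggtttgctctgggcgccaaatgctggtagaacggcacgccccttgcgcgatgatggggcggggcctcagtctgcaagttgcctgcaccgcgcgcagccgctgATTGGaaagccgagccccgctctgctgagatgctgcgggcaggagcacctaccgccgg
The antioxidant response core TGACNNNGC, searched on both strands (GCNNNGTCA), begins at position -47 from the start of *Psmb5* and at -9 from that of *Psmb6*. It was not among the letters of the *Psmb9* window, which holds a CCAAT box (ATTGG on this strand) at -8. RefSeq windows matched 39 of the 47 members, with 42 windows. The antioxidant response core was in 6 of these windows (14.3%), against 12.4% of all 32851 windows of this length. It was in 2 of 14 genes that were lower and in 4 of 23 that did not pass. CCAAT was in 14 windows (33.3%, against 37.4% of all). The ETS core CCGGAAGT, or ACTTCCGG on the other strand, was in 10 windows of 9 genes (23.8% of windows, against 3.89% of all). It was in 3 of the 14 genes that were lower and in 6 of the 23 that did not pass. Matches to letters do not show that a factor binds there.

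Each constitutive active site has an immunoproteasome partner, and the ratio of partner to constitutive subunit within a library does not depend on the scaling between libraries. The FPKM ratio of *Psmb9* to *Psmb6* was 0.380, 0.330 and 0.428 in Ctrl and 0.895, 0.948 and 0.765 in LIP. All LIP ratios lay above all Ctrl ratios. As log2(FPKM + 1) values the difference between the genes went from -1.36 ± 0.18 to -0.20 ± 0.15 (SD, n = 3), a change of 1.16. A two-sided exact permutation test gave p = 0.1, the lowest value that 3 against 3 allows, and 0.15 after adjustment over the 3 ratios. *Psmb9* itself rose from 67.5, 62.3 and 65.3 CPM to 102, 94.1 and 81.0 CPM (log2 fold change 0.51, SE 0.13, edgeR adjusted p = 0.00705). With library totals its log2 fold change was 0.18 and its adjusted p 0.246, and on neutrophil genes it was -1.30. The gene shares 212 bases with *Tap1* on the other strand, whose log2 fold change was -0.03 (edgeR adjusted p = 0.834).

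At the other active sites the ratio was lower in LIP or overlapped between the groups. The ratio of *Psmb10* to *Psmb7* was 4.42, 5.77 and 5.12 in Ctrl and 3.99, 3.68 and 2.30 in LIP. All LIP ratios were below all Ctrl ratios, by 0.65 on the log2 scale (exact permutation p = 0.1, adjusted 0.15). Leaving out LIP library 3 reduced this difference from -0.65 to -0.42. *Psmb10* fell from 57.3, 66.1 and 66.4 CPM to 48.9, 51.0 and 31.4 CPM (log2 fold change -0.53, SE 0.19, edgeR adjusted p = 0.0350). It did not pass without Ctrl library 2, Ctrl library 3 or LIP library 3 (edgeR adjusted p 0.0941, 0.103 and 0.101). With edgeR's own expression filter its adjusted p was 0.0870. The ratio of *Psmb8* to *Psmb5* was 0.992, 0.982 and 0.838 in Ctrl and 0.913, 0.893 and 0.901 in LIP, and these values overlapped (difference -0.05, exact permutation p = 0.4). *Psmb8* had a log2 fold change of -0.11 (SE 0.12, edgeR adjusted p = 0.448). Differences between the 3 ratios were not tested.

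**Figure D3:**
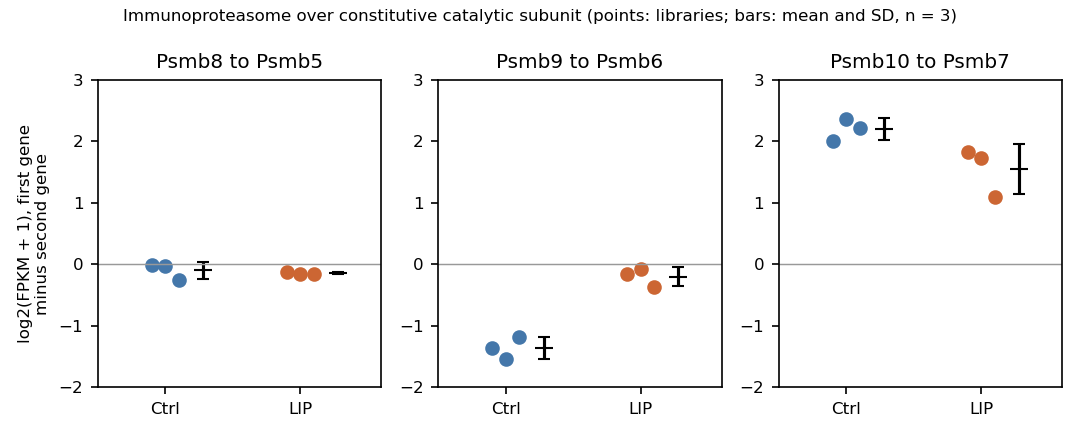
Log2 ratio of each immunoproteasome subunit to its constitutive partner in every library (points), with group mean and SD (bars, n = 3), on the log2(FPKM + 1) scale. The *Psmb9* to *Psmb6* points rise from a mean of -1.36 in Ctrl to -0.20 in LIP, those of *Psmb10* to *Psmb7* fall from 2.20 to 1.55, and those of *Psmb8* to *Psmb5* overlap.

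Among the 4 structural beta subunits, *Psmb1* was the one that fell. It had 71.1, 99.7 and 80.4 CPM in Ctrl and 39.4, 59.0 and 62.3 CPM in LIP, without overlap (log2 fold change -0.64, SE 0.19, edgeR adjusted p = 0.0164). *Psmb3* lay at the other end of this group with 79.5, 100.1 and 101 CPM in Ctrl and 100.2, 92.3 and 102 CPM in LIP (log2 fold change 0.07, SE 0.13, edgeR adjusted p = 0.678). *Psmb4* had a log2 fold change of -0.36 with an adjusted p of 0.0525 (-0.48 and 0.0244 without LIP library 2), and *Psmb2* one of -0.23 with an adjusted p of 0.193.

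The alpha ring, whose amino-terminal tails close the pore of the core, had 7 tested members, of which *Psma2*, *Psma3* and *Psma5* fell. *Psma5* was the lowest of them, with 31.5, 42.9 and 30.9 CPM in Ctrl and 16.2, 24.7 and 24.4 CPM in LIP (log2 fold change -0.69, SE 0.22, edgeR adjusted p = 0.0242). *Psma6* had the highest log2 fold change of the ring, 0.20 (SE 0.15, edgeR adjusted p = 0.258), with 79.1, 96.2 and 72.4 CPM in Ctrl and 83.5, 95.8 and 106 CPM in LIP. Its groups overlapped. *Psma2* (log2 fold change -0.33) and *Psma3* (-0.41) overlap *AW209491* on the same strand and *3110056K07Rik* on the other strand. *Psma4*, *Psma7* and *Psma1* had log2 fold changes of -0.33, -0.10 and 0.03 and did not pass. *Psma8*, the testis form of an alpha subunit, had 20 reads in Ctrl library 2 and 0 elsewhere and was not tested.

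In the 19S base, all 6 ATPases had negative log2 fold changes, from -0.68 to -0.35, with a median of -0.39. *Psmc4* and *Psmc5* passed the test. *Psmc5* was lowest, with 45.0, 52.3 and 45.4 CPM in Ctrl and 26.6, 32.9 and 29.6 CPM in LIP, so that the groups stood well apart (log2 fold change -0.68, SE 0.16, edgeR adjusted p = 0.00443). *Psmc4* had a log2 fold change of -0.58 (SE 0.13, edgeR adjusted p = 0.00406). *Psmc3* was nearest to 0, with 55.2, 71.4 and 70.6 CPM in Ctrl against 44.0, 50.9 and 60.2 CPM in LIP (log2 fold change -0.35, SE 0.16, edgeR adjusted p = 0.0959), and it overlaps *Slc39a13* on the other strand. *Psmc1* and *Psmc2* did not overlap between the groups but had adjusted p-values of 0.0590 and 0.0622. Without Ctrl library 1, *Psmc3* and *Psmc2* passed with adjusted p-values of 0.0472 and 0.0495, and *Psmc2* did so without LIP library 1 (0.0379). *Psmc6* overlapped (log2 fold change -0.36, adjusted p 0.164).

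Of the non-ATPase subunits of the base, the scaffold *Psmd1* fell and the ubiquitin receptor *Psmd4* stayed near its Ctrl level with TMM. With library totals *Psmd4* was lower (log2 fold change -0.36, edgeR adjusted p = 0.0186). *Psmd1* had 49.7, 43.1 and 60.9 CPM in Ctrl and 30.7, 39.4 and 21.4 CPM in LIP (log2 fold change -0.75, SE 0.23, edgeR adjusted p = 0.0179). Its LIP libraries were spread widely, though all lay below Ctrl. *Psmd4* had 128, 154 and 151 CPM in Ctrl and 139, 150.3 and 135 CPM in LIP (log2 fold change -0.03, SE 0.12, edgeR adjusted p = 0.827). *Psmd2*, the other large scaffold, had a log2 fold change of -0.33 (SE 0.22, edgeR adjusted p = 0.222).

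The lid held 4 lower members of 8, and its median log2 fold change was -0.36. These 8 leave out the lid subunit *Sem1*, whose symbol falls outside the name rule. *Sem1* rose (log2 fold change 1.03, edgeR adjusted p = 3.48e-05). *Psmd7*, the structural partner of the deubiquitinase (chromosome 8, 107580381-107588464), had 38.0, 46.9 and 39.8 CPM in Ctrl and 17.9, 23.2 and 25.2 CPM in LIP. The LIP mean was 53.2% of the Ctrl mean with no overlap (log2 fold change -0.91, SE 0.19, edgeR adjusted p = 0.00226). *Psmd14*, the deubiquitinase itself, fell with a log2 fold change of -0.56 (SE 0.15, edgeR adjusted p = 0.0103). *Psmd3* (log2 fold change -0.84, edgeR adjusted p = 0.00109) and *Psmd6* (-0.45, adjusted p 0.0375), both scaffold subunits of the lid, were the others. *Psmd8* had 103, 117 and 92.1 CPM in Ctrl and 108, 109 and 130.4 CPM in LIP, and these overlapped (log2 fold change 0.16, SE 0.13, edgeR adjusted p = 0.344). *Psmd11*, *Psmd12* and *Psmd13* had log2 fold changes of -0.26, -0.24 and -0.16 and did not pass. *Psmd13* contains *Gm15542* on the same strand, which had a mean of 35.7 FPKM.

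The chaperones of the 20S core had the most negative median of any role, -1.35 over 4 genes, and were among the members with the fewest reads. *Psmg1*, which pairs with *Psmg2* to start the alpha ring, had 456, 380 and 432 reads in Ctrl and 64, 152 and 129 in LIP. This corresponds to 7.66, 6.42 and 7.49 CPM against 1.29, 3.02 and 2.76 CPM, without overlap (log2 fold change -1.61, SE 0.40, edgeR adjusted p = 0.00654). *Psmg1* lies on chromosome 16 at 95979933-95990960. *Psmg2* had 611, 617 and 379 reads in Ctrl and 0, 258 and 180 in LIP, and the 0 of LIP library 1 allows up to 0.0599 CPM. Its groups did not overlap, but it did not pass (log2 fold change -1.60, SE 1.02, edgeR adjusted p = 0.208). Without LIP library 1 its log2 fold change was -1.02 with an adjusted p of 0.0331.

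The other pair of core chaperones consists of *Psmg3*, which fell (log2 fold change -1.10, SE 0.33, edgeR adjusted p = 0.0168), and *Psmg4*. *Psmg4* had 10.6, 11.5 and 10.3 CPM in Ctrl and 11.5, 4.36 and 6.45 CPM in LIP. LIP library 1 was thus at the Ctrl level, and the gene did not pass (log2 fold change -0.54, SE 0.36, edgeR adjusted p = 0.230). Without LIP library 1 its log2 fold change was -0.998 with an adjusted p of 0.0216, and without LIP library 2 it was -0.27 with an adjusted p of 0.535. The spread among LIP libraries was wide in this role, with a median coefficient of variation of 44.5%, against 11.4% over all members.

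Of the 3 chaperones of the 19S particle, *Psmd9* fell. It had 16.7, 22.5 and 14.7 CPM in Ctrl and 8.68, 7.58 and 11.7 CPM in LIP (log2 fold change -0.95, SE 0.27, edgeR adjusted p = 0.0137), and its groups did not overlap. *Psmd10*, also known as the oncoprotein gankyrin, had 19.3, 25.2 and 25.5 CPM in Ctrl and 28.1, 28.4 and 26.9 CPM in LIP. Its LIP libraries were all above Ctrl, but the difference did not pass (log2 fold change 0.25, SE 0.19, edgeR adjusted p = 0.271) and was -0.07 with library totals. *Psmd5* had a log2 fold change of -0.25 (SE 0.24, edgeR adjusted p = 0.411).

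Among activators and inhibitors of the core, *Psme3* and *Psmf1* fell and the other 4 did not pass. *Psme3* encodes PA28 gamma, a nuclear activator that acts without ubiquitin (chromosome 11, 101316213-101323537). It had 121, 109 and 127 CPM in Ctrl and 68.7, 74.7 and 73.5 CPM in LIP. The LIP libraries were close to each other and far below Ctrl, at 60.7% of the Ctrl mean (log2 fold change -0.72, SE 0.12, edgeR adjusted p = 0.000479), which was the smallest adjusted p of the members. *Psmf1*, which encodes the inhibitor PI31 (chromosome 2, 151715812-151744186), had 30.2, 31.0 and 27.2 CPM in Ctrl and 16.1, 13.6 and 14.1 CPM in LIP. Its LIP mean was 49.5% of the Ctrl mean (log2 fold change -1.01, SE 0.19, edgeR adjusted p = 0.00116).

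*Psme1* and *Psme2*, the interferon-inducible subunits of PA28 alpha-beta, did not pass. *Psme1* had 107, 126 and 113 CPM in Ctrl and 106, 110.1 and 98.5 CPM in LIP (log2 fold change -0.14, SE 0.12, edgeR adjusted p = 0.330). *Psme2* had 76.8, 97.0 and 79.1 CPM in Ctrl and 88.7, 75.5 and 60.6 CPM in LIP (log2 fold change -0.17, SE 0.16, edgeR adjusted p = 0.393). Both overlapped between the groups. *Psme2b*, a copy of *Psme2*, had 28.4, 29.9 and 31.8 CPM in Ctrl and 30.5, 30.6 and 33.1 CPM in LIP (log2 fold change 0.07, SE 0.16, edgeR adjusted p = 0.748). Reads of the copies may have been split between them, so both values are uncertain. *Psme4*, the activator PA200, had 14.8, 15.0 and 11.7 CPM in Ctrl and 10.8, 13.4 and 15.3 CPM in LIP, with full overlap (log2 fold change -0.07, SE 0.24, edgeR adjusted p = 0.828).

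**Figure D4:**
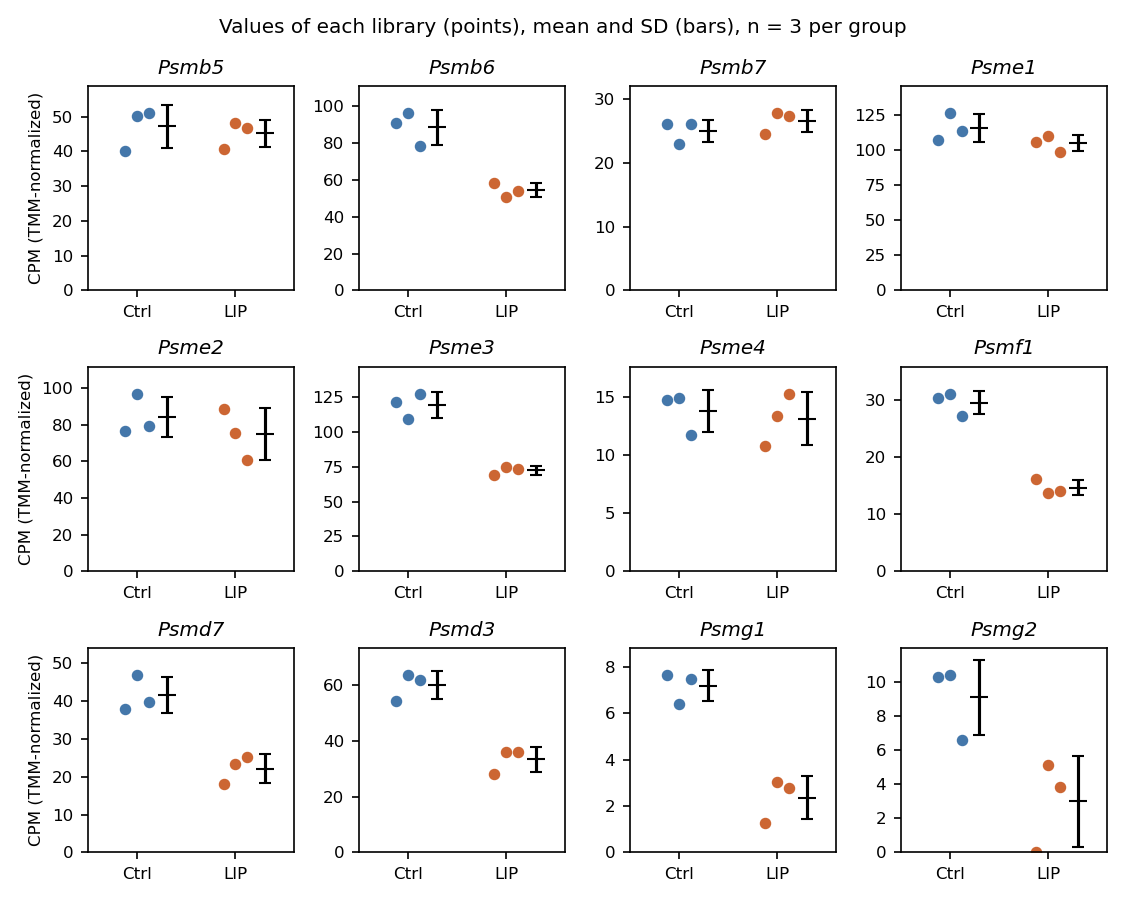
TMM-normalized CPM (y axis, starting at 0) of 12 proteasome genes in each Ctrl and LIP library (points), with group mean and SD (bars, n = 3). *Psmb6*, *Psme3*, *Psmf1*, *Psmd7*, *Psmd3* and *Psmg1* separate the groups, whereas *Psmb5*, *Psmb7*, *Psme1*, *Psme2* and *Psme4* overlap; *Psmg2* has 0 in LIP library 1.

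*Psmc3ip* matched the name rule only through its symbol: it encodes a cofactor of meiotic recombination, not a proteasome protein. It had 141, 108 and 104 reads in Ctrl and 45, 0 and 0 in LIP, stayed under a mean of 1 FPKM and was not tested. It overlaps *Mlx* on the other strand.

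Compared per length, as FPKM divided by the TMM factor, the order of the members was led by subunits of the core. In Ctrl the highest levels were those of *Psmb2* (61.9 ± 9.28), *Psma6* (60.8 ± 9.05), *Psmb5* (47.7 ± 6.17), *Psme1* (47.5 ± 4.08) and *Psmd4* (46.8 ± 4.49; SD, n = 3). Neighbors within this order differed by less than their SD, apart from the step between *Psma6* and *Psmb5*. In LIP, *Psma6* stood first (71.1 ± 8.11), ahead of *Psmb2* (53.4 ± 5.52). The lowest tested members were *Psme4* in Ctrl (1.49 ± 0.198) and *Psmd9* in LIP (1.18 ± 0.265). The median level was 19.8 in Ctrl and 15.2 in LIP. Summed over the members, the share of a library's counts averaged 0.296% ± 0.0190 for Ctrl and 0.194% ± 0.0105 for LIP libraries (SD over 3 each), a value that TMM does not scale. Such a share is on the scale of plain library totals. On that scale the median log2 fold change was -0.67 over the members and -0.42 over all genes tested.

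Other genes of the pathway, 34 in all and all tested, split between directions: 9 rose and 8 fell, where 26.5% of all genes rose and 27.2% fell, with a median log2 fold change of -0.03 against -0.09 over all genes. Library totals gave 5 higher and 16 lower, where 18.2% and 40.0% of all genes were, and scaling on neutrophil genes gave 0 higher and 34 lower. In the list on control of proteasome gene transcription, 4 of 7 rose and 0 fell by edgeR. At an unadjusted p under 0.05, 5 were higher and 0 lower, DESeq2 gave the same counts, and limma called 3 higher and 1 lower. Over all genes, DESeq2 called 28.6% higher and 27.0% lower, and limma called 1981 of 10440 higher and 40.9% lower. The largest change of this list was in *Nfe2l2*, which encodes NRF2, with 171, 174 and 184 CPM in Ctrl and 476, 465 and 487 CPM in LIP (log2 fold change 1.43, SE 0.09, edgeR adjusted p = 8.64e-07). With library totals it was still higher (1.10), but on neutrophil genes its log2 fold change was -0.38. *Nfe2l1*, which encodes NRF1, the factor known to restore proteasome genes when the proteasome is blocked, did not pass (log2 fold change -0.39, edgeR adjusted p = 0.126).

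Among 10 proteasome-associated genes whose symbols fall outside the name rule, 2 rose and 3 fell, where 26.5% of all genes rose and 27.2% fell. *Zfand5*, a ubiquitin-binding protein that stimulates the proteasome, had 138, 115 and 131 CPM in Ctrl and 311, 293 and 301 CPM in LIP (log2 fold change 1.24, SE 0.11, edgeR adjusted p = 5.60e-06). *Sem1*, the smallest subunit of the lid, rose with a log2 fold change of 1.03 (edgeR adjusted p = 3.48e-05). Both were negative on neutrophil genes, at -0.57 and -0.78. The lower ones were *Fbxo7*, which binds PI31, the deubiquitinase *Usp14* and the ligase *Ube3c*, with log2 fold changes of -1.07, -0.72 and -0.99. Their edgeR adjusted p-values were 0.00148, 0.0264 and 0.0124. With 1 library left out, *Fbxo7* passed in each fit, and *Ube3c* was lost without Ctrl library 1 (0.0640). *Usp14* passed without LIP library 2 (0.00779) but was lost without any other library (highest edgeR adjusted p 0.0758). *Sem1*, *Fbxo7*, *Usp14* and *Ube3c* were named after their values were seen.

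Of 8 shuttle factors and genes of the VCP complex, which bring ubiquitinated substrates to the proteasome, 0 rose and 3 fell by edgeR. Over all genes tested, 26.5% rose and 27.2% fell. At an unadjusted p under 0.05, 1 was higher and 4 were lower, and the share over all genes was not computed there. DESeq2 gave the same counts, where 28.6% of all genes were higher and 27.0% lower. With limma 0 were higher and 5 lower, where 40.9% of all genes were lower. Of 6 ubiquitin and E1 genes, 2 rose and 1 fell by edgeR, where 26.5% and 27.2% of all genes did.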

How the data were processed

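PB neutrophils from 3 Ctrl and 3 LIP pools of 5 mice were sequenced, and groups were taken from the sample labels, where LIP is given by its ligature. The table that the authors deposited gives unnormalized read counts and, beside them, FPKM values that are proportional to the counts at a constant length per gene. The submitters' processing notes name cutadapt 1.9, FastQC and GRCm38. The aligner, the counting tool and the use of strand are not given in the sources used here. Unnormalized counts keep the sequencing depth, and without molecular identifiers they include PCR copies.

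Genes averaging 1 FPKM or more (10440) entered a quasi-likelihood fit of the counts in edgeR 4.0.16 under R 4.3.3, with TMM normalization, without a replicate block, with Benjamini-Hochberg adjustment over all of them. The SE is the size of the log2 fold change over the square root of F. CPM are TMM-normalized. Ratios of subunits were compared by two-sided exact permutation tests on log2(FPKM + 1), whose smallest p is 0.1. Alternatives were other scalings, filters and tools (DESeq2 1.42.0, limma 3.58.1), a replicate block and leaving out each library.

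Members and gene lists were chosen with earlier results of these data known. Values per library are given for the tested members with the highest and lowest log2 fold change in each role, for all catalytic subunits, activators and inhibitors, for members not tested, for immunoproteasome subunits and for the gene with the largest passing change in each other pathway list, of which 2 are not reported here. Total counts of 52186555 to 57262379 make counting error small beside the spread between libraries, and intervals for a count of 0 (up to 3 reads) cover counting error only. P-values measure the spread between pools. Where a symbol was on several rows (50 symbols), that with the higher mean FPKM was taken. Other data types of the study were not analysed here.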

Additional observations from a re-analysis of the deposited data

How the results depend on the processing

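No alternative gave a higher member. TMM without haemoglobin genes, median-of-ratios size factors, DESeq2 and the replicate block left the counts of members and pathway genes and the members' median within 1.5 times of their values. Library totals gave 32 lower members, 5 higher and 16 lower pathway genes and a median of -0.67. Scaling on neutrophil genes gave 44, 0, 34 and -2.16, and limma on log2(FPKM + 1) gave 31, 5, 15 and -0.63. On log2(FPKM + 0.1), limma gave 28, 5, 15 and -0.66, where 39.0% of all genes were lower. Scaling by library totals or on neutrophil genes moves all genes together by construction. The limma fits used FPKM, which are scaled by depth without TMM factors, and also change the test and the values. Without a filter 10 members and 5 pathway genes were lower, where 7.51% of all 29097 genes were. The expression filter of edgeR gave 5 lower pathway genes. A minimum of 5 FPKM gave a median of -0.51. Leaving out 1 library gave 11 to 16 lower members (11 without Ctrl library 2) and 0 higher, where 21.6% to 26.5% of all genes were lower. These fits gave 8 to 10 higher and 5 to 8 lower pathway genes (5 without Ctrl library 2, Ctrl library 3 or LIP library 3). Their medians ran from -0.41 to -0.26. The cause was not tested.

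Members that did not pass with TMM changed sign in places. The values here cover the members given by library, and *Psma1*, *Psma7* and *Psmd13* also changed sign in some fits. *Psma6*, *Psmb3*, *Psmb7*, *Psmd10*, *Psmd8* and *Psme2b* had log2 fold changes of -0.12, -0.26, -0.24, -0.0728, -0.17 and -0.26 with library totals, of -1.61, -1.74, -1.72, -1.56, -1.66 and -1.74 on neutrophil genes, of -0.0980, -0.23, -0.19, -0.0411, -0.15 and -0.23 with limma on log2(FPKM + 1), and of -0.0994, -0.23, -0.22, -0.0430, -0.15 and -0.24 with limma on log2(FPKM + 0.1). With a minimum of 5 FPKM, *Psmb3*, *Psmb7*, *Psmd8* and *Psme2b* had -0.11, -0.0913, -0.0238 and -0.11. *Psmd4* had 0.0048 with median-of-ratios factors and with DESeq2 and 0.0068 with edgeR's own filter. With 1 library left out, *Psmb3* ranged from -0.0306 to 0.138, *Psmb5* from -0.162 to 0.00698, *Psmd4* from -0.105 to 0.0325 and *Psme4* from -0.191 to 0.0566. *Psmb5*, *Psmc3*, *Psmd4*, *Psme1* and *Psme2* did not pass with TMM but were lower with library totals, where 40.0% of all genes were. Their log2 fold changes there were -0.39, -0.67, -0.36, -0.47 and -0.50 (edgeR adjusted p 0.0479, 0.00569, 0.0186, 0.00534 and 0.0204).

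Groups share replicate numbers only by name: deviations of same-numbered libraries correlated at -0.0112, 0.0437 and 0.0218 across genes, so the numbers were not taken to pair the libraries. The replicate block gave 18 lower members in place of 17, and the ratios permuted within numbers can reach no p below 0.25.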
